A study of Mus musculus with 173 samples.

Results

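The nuclear factor I genes Nfia, Nfib, Nfic and Nfix, the forkhead genes Foxo1 and Foxo3 and the zinc finger gene Zbtb20 were followed through single-cell RNA-seq of the adult mouse dentate gyrus, the part of the hippocampus in which neural stem cells persist. The 7 genes were taken by name from the 23307 rows of the table, and each has a row of its own. The filter on low values (1 TPM or more in 5% of libraries or more) was passed by 6 of them, as by 12007 genes in all, and Foxo3 did not pass it. Each of the 172 libraries was taken as the RNA of 1 cell, although doublets were not called. Titles put 4 of them in a class R, 26 in a class N and all others in a class C. Strain (C57BL/6), age (8 to 12 weeks) and tissue were the same in all 3 classes. The labels do not spell the letters out. The table has a row for the cyan fluorescent protein eCFP, whose median was 8739 TPM in C, 12.0 TPM in R and 44.6 TPM in N. TPM is a share of transcripts per unit of length, so levels of different genes can be set side by side, but how deeply each cell was sequenced is unknown. Libraries held 1600 to 7192 genes with 1 TPM or more, with medians of 3701 in C, 3240.5 in R and 3565 in N. The labels name no animal, litter or date, so the cells of a class were taken as 1 sample and nothing was tested. Every SD given is between libraries, and a difference is called past the fold when it is at least 1 on the log2 scale.

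NFI proteins bind DNA as dimers and switch on astrocyte genes in the developing brain, and in cultured mouse neural stem cells Nfix has been tied to the quiescent state. FoxO proteins are the transcription factors that the insulin and Akt pathway keeps out of the nucleus, so their RNA level is not their activity, and in mice loss of FoxO genes depletes adult neural stem cells. Zbtb20 is a repressor needed for the identity of hippocampal pyramidal neurons. All 3 groups are spoken of as factors of the quiescent or glial state. At the level of RNA, the 7 genes did not all go the same way between cycling and non-cycling C cells. These groups are not active and quiescent stem cells. Of 28 cycling cells, 12 were led by a neural stem cell marker list and 10 by an intermediate progenitor list. On the mean log2(TPM + 1) scale Nfib and Nfix were higher in cycling than in non-cycling cells by at least 1. So were 15.1% of all tested genes. Foxo1 was lower by at least 1, as were 4.13% of them. The Foxo1 difference was short of 1 among cells led by a neural stem cell marker list and with cycling called from Mki67 alone. That of Nfib was short of 1 by the log2 ratio of mean TPM. Nfia, Nfic and Zbtb20 differed by less than 1, and Foxo3 was listed at less than 1 TPM in every C library.

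Nfia and Nfib were the most widely seen members in C. Nfia, which is needed for the onset of gliogenesis, ran from 0.46 TPM through a median of 146 TPM to 1014 TPM across the C cells. Its values in R were 21.95, 132.2, 3.42 and 0.16 TPM, in R1 to R4, and those in N ran from 0 through 81.02 to 317 TPM. Nfia was at 1 TPM or more in 98.6% of C libraries (exact Clopper-Pearson 95% interval 95 to 99.8, counting error only), in 3 of 4 R libraries and in 84.6% of N libraries (65.1 to 95.6). All 3 ranges overlap, and only C94 (0.67 TPM) and C116 (0.46 TPM) among the C cells were below 1 TPM, both with high Nfib (176 and 302 TPM).

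Nfib, a paralogue with an overlapping role in hippocampal development, ran from 0.20 through 150.1 to 1500.1 TPM in C. In R it had 84.2, 276, 23.8 and 84.8 TPM, and in N it ran from 0 through 8.15 to 904 TPM. The N values spread widely, with 13 of 26 libraries at 10 TPM or more, so the N class includes libraries as high as C beside low ones.

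Nfix split the C cells. It ran from 0 through 57.9 to 2557 TPM, with a lower quartile of 2.27 TPM and an upper quartile of 389 TPM. In R all 4 libraries were high, at 943, 29.1, 174 and 53.8 TPM, and in N it ran from 0 through 2.02 to 932 TPM. A level of 10 TPM was reached by 56.3% of C libraries (47.8 to 64.6), by 4 of 4 R libraries and by 15.4% of N libraries (4.36 to 34.9). Nfic, the member of the family best known from tooth root formation, was below 1 TPM in most libraries of every class. It still reached 10 TPM in 15.5% of C libraries and 23.1% of N libraries. It was at 1 TPM or more in 26.1% of C libraries (19.1 to 34.1), in 0 of 4 R libraries and in 23.1% of N libraries (8.97 to 43.6), with a highest value of 164 TPM among C and of 50.03 TPM among N cells. The exact interval for 0 of 4 libraries reaches 60.2%.

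Among the FoxO genes, Foxo1 was present in a minority of cells at high levels. It ran from 0 through 0.56 to 1609 TPM in C and reached 1 TPM in 39.4% of C libraries (31.3 to 48), with a median of 69.3 TPM in those. In R it was at 46.2 TPM in R2 and at 0.10 TPM or less in the other 3 libraries. In N it ran from 0 through 0.48 to 185 TPM, with 26.9% of libraries at 1 TPM or more (11.6 to 47.8). Foxo3, the FoxO gene best studied in adult stem cells, was listed at 0 in all but 3 C libraries, which had 0.83, 0.81 and 0.27 TPM. Its values in R were 81.8, 0, 0 and 185 TPM, and in N it was listed at 0 in all but N15 (0.93 TPM). R1 and R4 were thus the only libraries of 172 with 1 TPM or more. The exact interval for a listed level of 1 TPM or more reaches 2.56% in C and 13.2% in N, for counting error only. An exact 0 in this table can be a failed estimate, since Gapdh was listed at 0 in 2 libraries, so neither absence of Foxo3 RNA nor a limit on the share of cells with it can be read from these values.

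Zbtb20 ran from 0 through 46.7 to 1642 TPM in C. It was at 3, 0, 0 and 0 TPM in R, and ran from 0 through 1.49 to 588 TPM in N. It reached 10 TPM in 64.1% of C libraries (55.6 to 72), in 0 of 4 R libraries and in 23.1% of N libraries (8.97 to 43.6). C was thus the class with the largest share of cells high in this gene, but the N range covered most of the C values. N18, N15, N9 and N8, at 588, 223, 176 and 171 TPM, lay above the C upper quartile of 165 TPM.

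**Figure D1:**
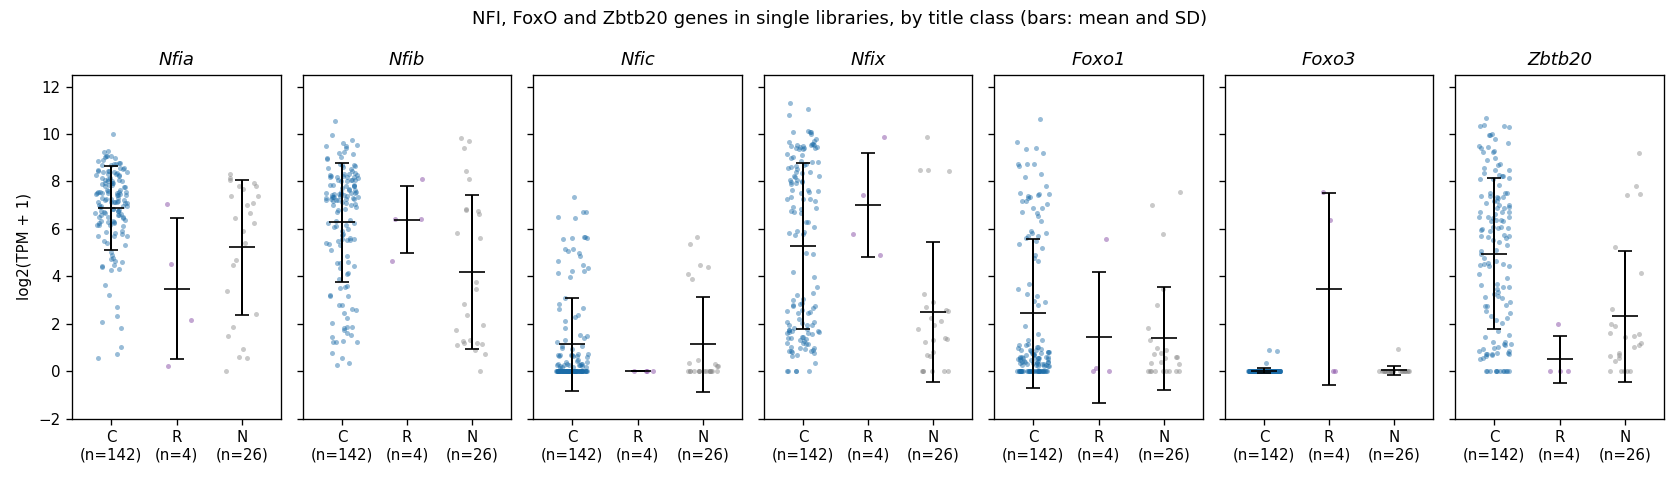
Level of each gene, as log2(TPM + 1), in every C, R and N library; points are libraries and bars give the mean and the SD between libraries. Nfix and Zbtb20 have an upper group of C libraries that few N libraries join, Foxo1 and Nfic are near 0 in most cells, and Foxo3 is above 1 TPM in R1 and R4 alone.

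C was set against N to see which of these genes go with the eCFP-high cells. On the log2(TPM + 1) scale, on which a difference understates the change of a low gene, 5 of the 7 were higher in C by at least 1, and 0 were lower by as much. Of all 12007 genes tested 9.98% were higher by at least 1 and 4.19% lower (14.2% in either direction), and the median difference over all of them was 0.17. With each library rescaled, 7.84% were higher and 5.55% lower. Nfix averaged 5.28 ± 3.52 across C and 2.49 ± 2.94 across the 26 N libraries, which differ by 2.79. Zbtb20 averaged 4.96 ± 3.20 in C and 2.32 ± 2.76 in N, a difference of 2.64. Nfib averaged 6.27 ± 2.51 in C and 4.19 ± 3.26 in N, a difference of 2.08, and Nfia 6.88 ± 1.77 in C and 5.22 ± 2.83 in N, a difference of 1.66. By the log2 ratio of mean TPM both were short of 1, at 0.47 for Nfib and 0.81 for Nfia. Foxo1 averaged 2.44 ± 3.14 in C and 1.38 ± 2.18 in N, a difference of 1.06 that was 0.98 after rescaling of the libraries and 0.60 among libraries with at least 3000 genes. Nfic was level, at 1.12 ± 1.94 in C and 1.13 ± 1.99 in N. Each of these differences is smaller than the SD between N libraries, and for each gene the classes overlap. Nfix was above the N median in 78.9% of C libraries and Nfib in 83.8%.

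**Figure D2:**
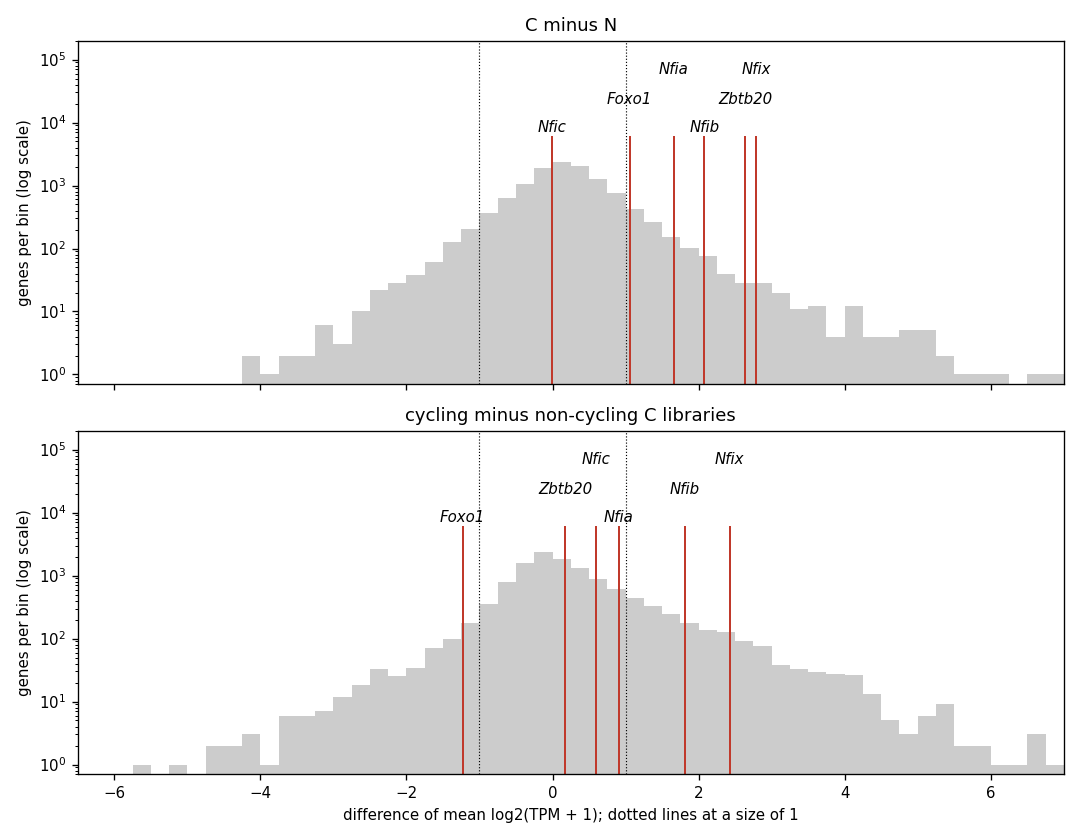
Histogram of the difference of mean log2(TPM + 1) over the 12007 tested genes (vertical axis, log scale) for C minus N and for cycling minus non-cycling C libraries, with red lines for the 6 members that passed the filter. Nfix (2.79) and Zbtb20 (2.64) lie far in the upper tail for C minus N; in the lower panel Nfix (2.43) and Nfib (1.81) are on the upper side and Foxo1 (-1.23) on the lower.

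N is a mixture, and the difference depended on which N cells were taken. Each library was assigned to the marker list with its highest mean, if that mean was at least 4 and at least 3 markers were seen. In C, 12 cycling and 100 non-cycling libraries were led by the neural stem cell list. The intermediate progenitor list led 12 C libraries and the oligodendrocyte precursor list 6. The astrocyte and mature neuron lists led 3 each and the mural list 1, while 5 C libraries had no leading list. In N, 6 libraries were led by the endothelial list, 5 by the oligodendrocyte precursor list, 4 by the oligodendrocyte list and 3 by the mural list, while 6 had no leading list, and N11 and N8 were led by the astrocyte and the neuroblast list. The endothelial list mean ran from 0 to 6.68 in C and from 0 to 10.1 in N, and all 5 of its tested genes were lower in C by at least 1. The oligodendrocyte precursor list mean ran from 0 to 7.36 in C and from 0 to 8.94 in N, with 7 of 8 genes lower in C by at least 1. The part of these lists in the differences was not tested.

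The members differed among these N cells. In the 4 libraries of the oligodendrocyte list Zbtb20 and Foxo1 stayed below 1 TPM, with highest values of 0.56 and 0.68 TPM. Nfib in the 3 mural list libraries was at 0.84 to 1.3 TPM, while Nfia there ran from 1.80 to 243 TPM. In the 5 oligodendrocyte precursor list libraries Nfia was at 9.31 to 267 TPM, and its mean of 6.88 in C against 6.25 in these N libraries differed by 0.63. The 6 N libraries with no leading list had an Nfib mean of 7.29 ± 3.11, above C. N8, of the neuroblast list, had 904 TPM of Nfib, 224 TPM of Nfia and 171 TPM of Zbtb20, but 1.55 TPM of Nfix. N11, of the astrocyte list, had 169 TPM of Nfia and 128.3 TPM of Foxo1, but 2.89 TPM of Nfix and 1.27 TPM of Zbtb20.

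**Figure D3:**
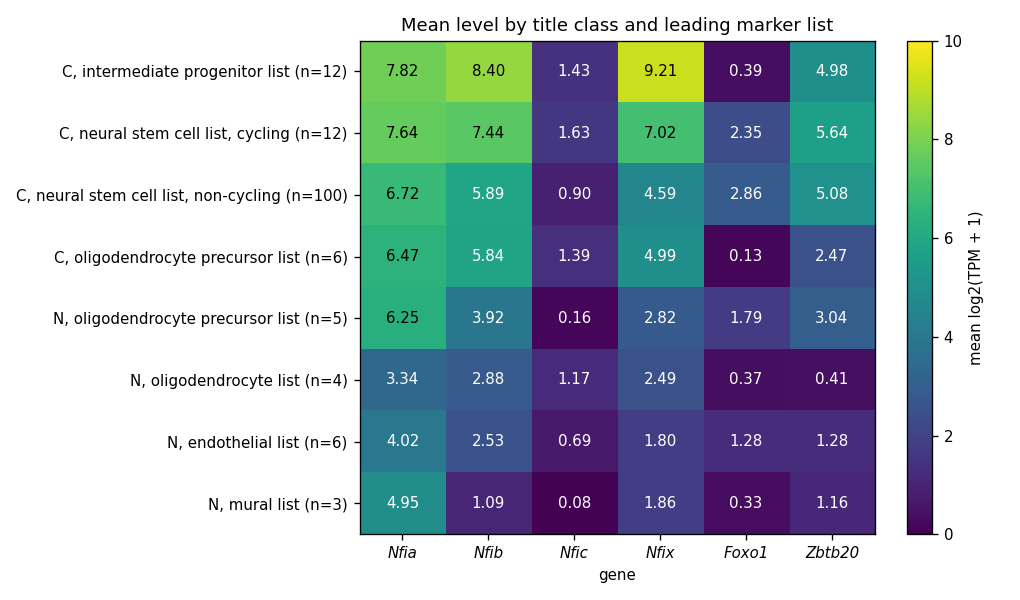
Mean log2(TPM + 1) of 6 genes in libraries grouped by title class and leading marker list, with the number of libraries; colour runs from 0 to 10. Among the groups shown, Nfix is highest in C libraries of the intermediate progenitor list (9.21). Foxo1 is, among the same groups, highest in non-cycling libraries of the neural stem cell list (2.86). In N libraries of the endothelial list Nfia (4.02) has the highest mean.

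R against N rests on 4 libraries. Their mature neuron list means were 4.66, 5.55, 6.23 and 7.48, with 3 libraries led by that list and R1 by the neural stem cell list (4.90). Nfix averaged 7.01 ± 2.19 in R and 2.49 ± 2.94 in N, a difference of 4.51, and all 4 R libraries lay above the N median. Nfib averaged 6.40 ± 1.42 in R and 4.19 ± 3.26 in N, a difference of 2.20, but its log2 ratio of mean TPM was -0.25, the other direction. Nfia was lower in R, at 3.48 ± 2.96 against 5.22 ± 2.83 in N, and without R4 the difference of -1.74 was -0.65. Zbtb20 averaged 0.50 ± 1.0 in R and 2.32 ± 2.76 in N, a difference of -1.82. In all, 3 members (Nfib, Nfix and Foxo3) were higher and 3 (Nfia, Nfic and Zbtb20) lower by at least 1. Nfic was at 0 in every R library and Foxo3 at 0 in nearly every N library, so no fold is given there. Foxo3 did not pass the filter and is not among the genes behind the shares that follow. Among all genes 23.8% were higher and 17.5% lower by as much (41.3% in either direction), and by the log2 ratio of mean TPM 19.3% and 49.8%. Without R2, the single R library with Foxo1, the Foxo1 difference of 0.05 was -1.33.

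Within C, cycling cells were set against non-cycling cells. A cell was called cycling when the mean log2(TPM + 1) of an S phase list of 18 genes or of a G2 and mitosis list of 20 genes was at least 3; none of the 7 genes is in these lists. This gave 28 cycling libraries, with all other C libraries non-cycling and 9 cells within 1 of the cut, so cycling here is a range of a score and not a cell type. Nfib and Nfix were higher in cycling cells by at least 1 and Foxo1 was lower by at least 1, while 15.1% of all tested genes were higher and 4.13% lower by as much (19.2% in either direction). By the log2 ratio of mean TPM 15.2% of all genes were higher and 31.8% lower by as much.

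On the mean log2(TPM + 1) scale Nfix had the widest gap of the members, and by the log2 ratio of mean TPM Foxo1 had (-2.74, against 1.0 for Nfix). Nfix ran from 0.92 through 346 to 1811 TPM in cycling cells and from 0 through 12.7 to 2557 TPM in non-cycling cells. A level of 10 TPM was reached by 82.1% of cycling cells (63.1 to 93.9) and by 50% of non-cycling cells (40.5 to 59.5). The mean was 7.23 ± 2.99 in cycling and 4.80 ± 3.49 in non-cycling cells, a difference of 2.43, and 22 of 28 cycling cells lay above the non-cycling median. The range of non-cycling cells took in that of the cycling cells. Of the 10 C libraries highest in Nfix 3 were cycling, against 19.7% of all C libraries.

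Nfib ran from 7.93 through 232 to 1500.1 TPM in cycling cells and from 0.20 through 115.9 to 997 TPM in non-cycling cells. Its mean was 7.73 ± 1.54 in cycling and 5.91 ± 2.57 in non-cycling cells, a difference of 1.81, and 24 of 28 cycling cells lay above the non-cycling median. The log2 ratio of mean TPM was 0.96, short of 1. At least 10 TPM was reached by 96.4% of cycling cells (81.7 to 99.9) and by 78.9% of non-cycling cells (70.3 to 86.02). Nfia averaged 7.61 ± 1.13 in cycling and 6.70 ± 1.85 in non-cycling cells, a difference of 0.91 that stayed short of 1. It was 1.02 without C125 and past 1 also without the C libraries of other lineages that the order below leaves out. Nfic averaged 1.60 ± 2.29 in cycling and 1.01 ± 1.84 in non-cycling cells, a difference of 0.60.

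Foxo1 went the other way. It ran from 0 through 0.35 to 116.8 TPM in cycling cells and from 0 through 0.64 to 1609 TPM in non-cycling cells. The share at 1 TPM or more was 32.1% in cycling cells (15.9 to 52.4) and 41.2% in non-cycling cells (32.1 to 50.8), and those intervals overlap. The level among such cells differed more, with a median of 7.95 TPM in 9 cycling and 103.4 TPM in 47 non-cycling cells. The 9 values spread from 1.17 to 116.8 TPM. Its mean was 1.45 ± 2.11 in cycling and 2.68 ± 3.30 in non-cycling cells, a difference of -1.23, and 2.78% of all tested genes had a difference as low or lower. The 10 C libraries highest in Foxo1 were all non-cycling, as were 80.3% of all C libraries. With cycling called from Mki67 alone the difference was -0.81.

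Zbtb20 averaged 5.10 ± 3.08 in cycling and 4.93 ± 3.24 in non-cycling cells, a difference of 0.17, and its share at 1 TPM or more was 78.6% in cycling (59 to 91.7) and 82.5% in non-cycling cells (74.2 to 88.9). Its direction depended on the scale: the log2 ratio of mean TPM was -0.58. The 10 with the highest Zbtb20 were also all non-cycling, beside that same 80.3%. Foxo3 had at most 0.81 TPM in cycling and 0.83 TPM in non-cycling cells.

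**Figure D4:**
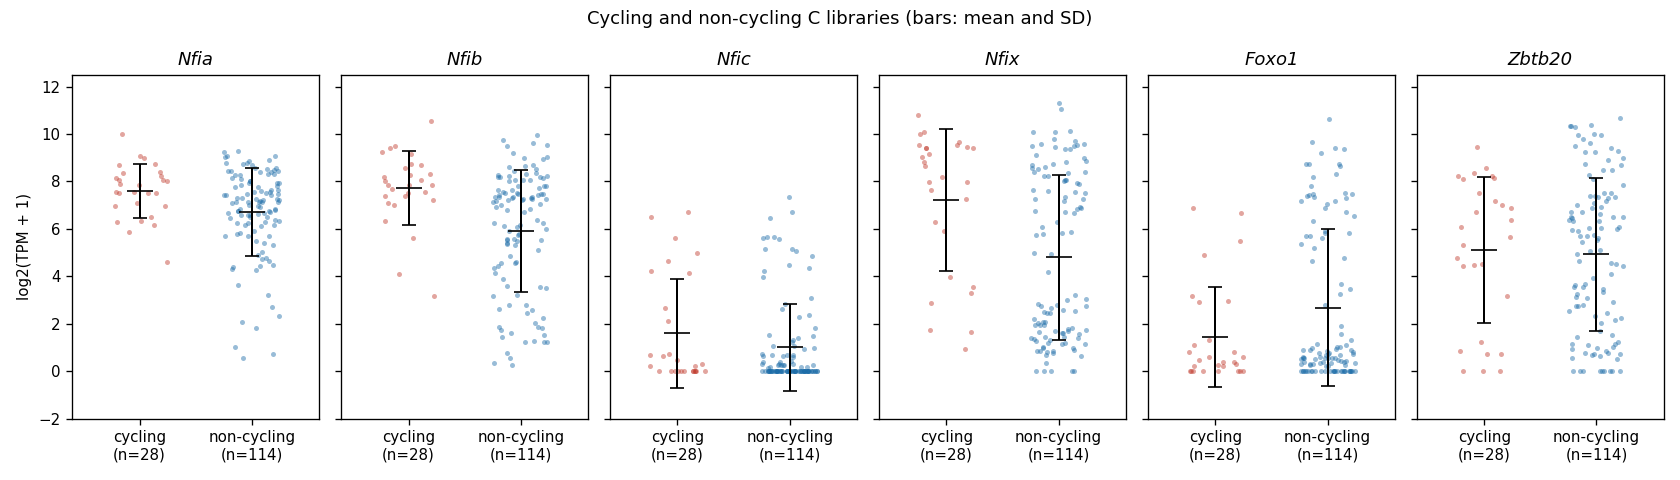
Level of 6 genes, as log2(TPM + 1), in 28 cycling and all non-cycling C libraries; points are libraries and bars the mean and SD. Nfib and Nfix lack most of the low values in cycling cells, Foxo1 lacks the highest ones, and the means of Zbtb20 are close (5.10 in cycling and 4.93 in non-cycling cells).

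Other measures moved with the cycling class. The median number of genes per library was 3939.5 in cycling and 3651.5 in non-cycling cells. The intermediate progenitor list mean ran from 0.42 to 6.49 in cycling and from 0.07 to 4.94 in non-cycling cells, with 6 of 10 genes higher by at least 1 and 10 of 10 higher at all, and none of its markers was below 1 TPM in every cell of either group. The astrocyte list mean ran from 0.33 to 5.07 in cycling and from 0.40 to 7.31 in non-cycling cells, with 8 of 11 genes lower by at least 1. The neural stem cell list mean ran from 2.52 to 7.46 in cycling and from 1.75 to 8.30 in non-cycling cells, with 9 of 15 genes lower and 1 higher by at least 1. The part of these lists in the results was not tested. After rescaling, the members kept their places relative to 1, and among libraries with at least 3000 genes likewise.

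Stem cell-led and progenitor-led cells were also looked at apart. In the 12 cycling cells led by the neural stem cell list Nfix averaged 7.02 ± 2.83, against 4.59 ± 3.40 in the 100 non-cycling cells of that list. Nfib averaged 7.44 ± 1.49 in the same cycling cells and 5.89 ± 2.54 in the non-cycling ones. Both genes were thus higher by at least 1 within this list. The number of genes per library differed too, with medians of 4212 in these cycling and 3591.5 in the non-cycling cells. Foxo1 averaged 2.35 ± 2.55 in these cycling cells and 2.86 ± 3.36 in the non-cycling ones, a difference of -0.52, with 6 of 12 cycling and 44 of 100 non-cycling cells at 1 TPM or more. In the 12 cells led by the intermediate progenitor list, of which 10 were cycling, Foxo1 reached 1 TPM in 1 cell, at 6.82 TPM, and averaged 0.39 ± 0.84. Nfix in those 12 cells ran from 58.9 through 714 to 2557 TPM and averaged 9.21 ± 1.51, with no cell below 10 TPM. The 2 non-cycling cells among them had 695 and 2557 TPM of Nfix and 0 TPM of Foxo1. High Nfix was not particular to these cells, since the 3 C cells led by the mature neuron list averaged 8.61 ± 0.48. Those 3 held many genes, with a median of 6678 against 3701 in all C, and doublets were not called.

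The mixture of NFI genes differed as well. The summed NFI level had a median of 1026 TPM in cycling and 444 TPM in non-cycling cells. Nfix was the most abundant of the 4 NFI genes in 53.6% of cycling cells and in 30.7% of non-cycling cells, and Nfia in 25% of cycling and 41.2% of non-cycling cells. In progenitor-led cells Nfix led in 8 and Nfib in 4 of 12, and Nfia in 0, while Nfia led in 45 of the 100 non-cycling stem cell-led cells. Nfia, Nfib and Nfix were all at 1 TPM or more in 96.4% of cycling (81.7 to 99.9) and 82.5% of non-cycling cells (74.2 to 88.9).

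C cells were also put in an order, without the 14 that had a mean of 4 or more for another lineage's list. Those lists were oligodendrocyte precursor, oligodendrocyte, endothelial, mural, mature neuron and microglia, so the cells led by the astrocyte list stayed in. The order followed the first principal component of 1000 variable genes outside all lists. It was directed so that progenitor genes lay above stem cell genes. The component held 6.61% of the variance. Cut into 5 bins of 25 or 26 cells, the order held 0, 0, 2, 5 and 19 cycling cells. Nfix averaged 2.77 ± 2.42 in bin 1, 5.07 ± 3.51, 5.02 ± 3.46 and 5.41 ± 3.85 in bins 2 to 4, and 7.79 ± 2.39 in bin 5. Nfib averaged 4.57 ± 2.95 in bin 1 and 7.99 ± 0.95 in bin 5, and Nfia 6.00 ± 2.55 in bin 1 and 7.57 ± 0.87 in bin 5. Spearman's rho with the order was 0.44 for Nfix, 0.38 for Nfib and 0.26 for Nfia, as a description with no p. The number of genes per cell also went with the order (rho 0.34).

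Foxo1 had no trend along the whole order (rho 0.00) but was not flat. It reached 1 TPM in 8 of 25, 9 of 26, 10 of 25, 17 of 26 and 9 of 26 cells in bins 1 to 5. Its mean was 3.96 ± 3.43 in bin 4 and 1.88 ± 2.49 in bin 5, within 1 SD of each other. Zbtb20 had a rho of 0.05, with means from 4.25 ± 3.04 in bin 4 to 6.25 ± 2.39 in bin 5. Among the non-cycling cells in the same order the rho values were 0.32 for Nfix, 0.27 for Nfib and 0.20 for Nfia. When these cells were ordered anew they were -0.27, -0.21 and -0.20. In that second order the progenitor list (-0.32) and the stem cell list (-0.40) both had a negative rho, so its direction is poorly fixed.

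**Figure D5:**
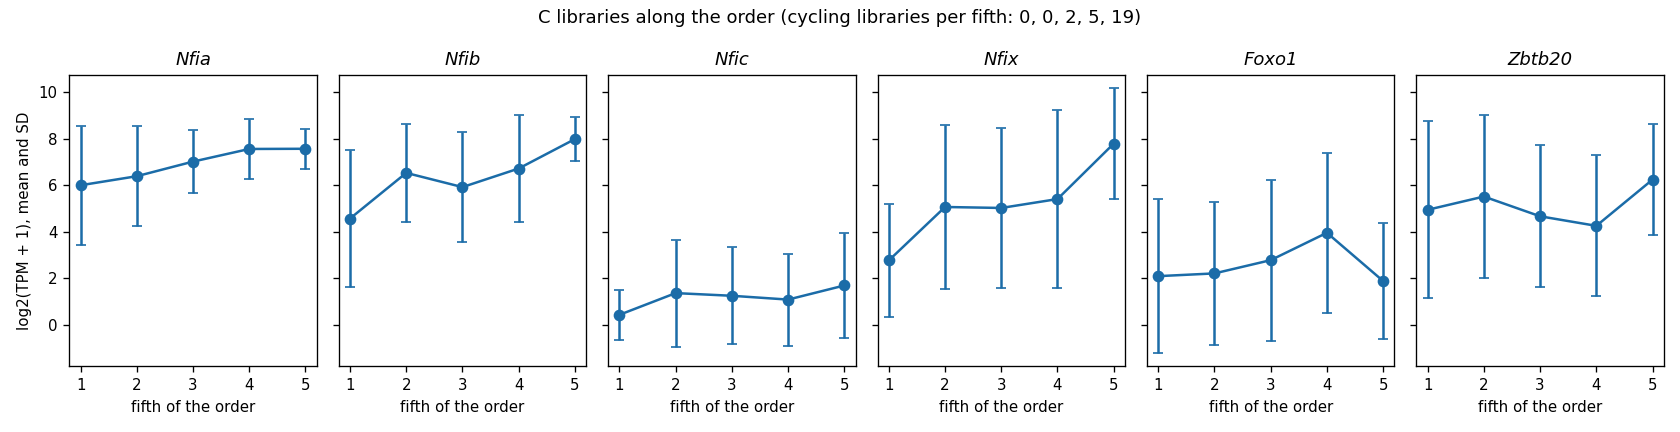
Mean log2(TPM + 1) with the SD between libraries of 6 genes in 5 successive bins of the order of C libraries. Nfix and Nfib are lowest in bin 1 and highest in bin 5, and Foxo1 is highest in bin 4 (3.96).

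The members were weakly tied to each other from cell to cell. Over all C libraries the largest rho among the 21 pairs was 0.28, for Nfib and Nfix, followed by 0.25 for Nfia and Nfic. Nfix and Foxo1 had a rho of -0.12, and both were at 1 TPM or more in 46 cells, Nfix alone in 79 and Foxo1 alone in 10. In the non-cycling cells without other lineages, Nfib and Nfix had 0.11 and Nfia and Nfic 0.28. All cells share the table's scaling to a fixed sum, and rho with the number of genes detected was 0.24 for Nfix, 0.25 for Zbtb20 and 0.03 for Foxo1.

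Among 6315 genes at 1 TPM or more in at least 20% of C libraries, the genes most like each member by rho over all C cells are given here as a description. For Nfix they were Tubb5, a beta tubulin (0.44), Med22, a Mediator subunit (0.42), and Syncrip, an RNA-binding protein (0.39). The least like it were Dbi, which binds acyl-CoA (-0.39), and Fabp7, a fatty acid-binding protein of radial glia (-0.33). For Nfib they were the G1 cyclin Ccnd2 (0.38), the histone methyltransferase Whsc1 (0.37) and the nucleosome-binding Hmgn2 (0.37). Among the least like it was the protease inhibitor Cst3 (-0.40). Ccnd2, Whsc1 and Hmgn2 were themselves higher in cycling cells, by 3.95, 3.85 and 4.23. In non-cycling cells without other lineages their rho with Nfib was 0.29, 0.27 and 0.21, while Med22 with Nfix had 0.43 there. For Foxo1 they were Surf4, a cargo receptor (0.40), Ggh, a folate hydrolase (0.34), and the antioxidant enzyme Prdx6 (0.33), with Dctn6 and Hnrnpa1 (-0.30 each) least like it. Cycling minus non-cycling differences of the genes named for Nfix were 5.03 for Tubb5, 1.08 for Med22, 2.21 for Syncrip, -1.11 for Dbi and -2.46 for Fabp7. Of those named for Foxo1, Hnrnpa1 had 5.45, Surf4 -1.63 and Prdx6 -2.15, while Ggh and Dctn6 were short of 1.

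For Nfia the list was Prpf4 (0.36), Tcf4 (0.35) and D030056L22Rik (0.31), with Nsmaf (-0.29) and Gphn (-0.28) at the other end. For Zbtb20 it was Gm15446 (0.36), Pitpnc1 (0.34) and Tial1 (0.33), with Rab6a (-0.27) and Lrrc58 (-0.24), and for Nfic it was Nelfe (0.39), Cse1l (0.34) and Hdhd2 (0.34), with Ank2 (-0.24) and Ifngr1 (-0.22). Cycling minus non-cycling, Nelfe had 2.34, Cse1l 1.83, Tcf4 1.04, Pitpnc1 -1.58 and Ank2 -1.02, and the other genes of this paragraph were short of 1. Gm15446 had a rho of 0.38 with the number of genes detected. The median gene had a best rho of 0.38 with some other gene, close to the best values of the members, which ran from 0.36 to 0.44.

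Glial genes linked to NFI factors were mostly higher in C than in N and lower in cycling than in non-cycling cells. This list has 15 genes, of which 10 are also in the stem cell or astrocyte lists. Shares past the fold over all genes, for this and the next lists, were 9.98% higher and 4.19% lower in C minus N, and 15.1% higher and 4.13% lower in cycling minus non-cycling cells. Between C and N, 10 were higher by at least 1 and 1 lower, with a median of 2.91: Slc1a3, a glutamate transporter, averaged 11.22 ± 2.04 in C and 5.05 ± 2.32 in N, Fabp7 averaged 11.34 ± 2.77 in C and 5.49 ± 3.26 in N, and the calcium-binding S100b averaged 1.22 ± 2.37 in C and 3.72 ± 4.03 in N. Between cycling and non-cycling cells 1 was higher and 9 lower by at least 1, with a median of -1.90. Gja1, connexin 43, averaged 4.43 ± 3.43 in cycling and 8.08 ± 3.38 in non-cycling cells, and Sparcl1, a secreted glial protein, 6.83 ± 3.11 in cycling and 10.43 ± 2.09 in non-cycling cells. Zcchc24 was the exception, at 3.05 ± 3.30 in cycling and 1.93 ± 2.94 in non-cycling cells.

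Genes that FoxO factors are known to activate were past the fold in both directions. Of 19 tested, 1 was higher and 1 lower in C than in N by at least 1, with a median of 0.11, beside 14.2% of all genes past the fold in either direction: Cdkn1b, the cell cycle inhibitor p27, averaged 2.73 ± 2.36 in C and 1.72 ± 2.51 in N, and the autophagy gene Gabarapl1 averaged 1.11 ± 2.15 in C and 2.25 ± 2.89 in N. Between cycling and non-cycling cells 2 were higher and 3 lower, with a median of 0.13, beside 19.2% of all genes. Ccng2, an atypical cyclin of resting cells, was higher in cycling cells, at 2.59 ± 3.28 against 0.56 ± 1.73 in non-cycling cells, and so was Txnip, a thioredoxin inhibitor, at 3.01 ± 3.37 against 1.41 ± 2.59 in non-cycling cells. Bnip3, a mitophagy receptor, averaged 1.84 ± 3.03 in cycling and 3.10 ± 3.91 in non-cycling cells, and Gabarapl1 0.21 ± 0.45 in cycling and 1.33 ± 2.34 in non-cycling cells.

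The insulin to Akt list, upstream of FoxO, had 22 tested genes. In C against N 1 was higher and 2 lower by at least 1, beside 14.2% of all genes in either direction: Akt2, an Akt kinase, averaged 2.51 ± 3.29 in C and 1.08 ± 2.04 in N, Pdpk1, which activates Akt, 1.36 ± 2.37 in C and 2.56 ± 2.97 in N, and Sgk1, a related kinase, 0.56 ± 1.61 in C and 1.63 ± 3.35 in N. Between cycling and non-cycling cells Akt2 was lower, at 1.65 ± 2.54 against 2.72 ± 3.42 in non-cycling cells, and Ywhaq, a 14-3-3 protein of the kind that binds phosphorylated FoxO, was higher, at 8.25 ± 3.04 against 6.06 ± 3.78 in non-cycling cells. The median over this list was -0.19 in C minus N and 0.12 in cycling minus non-cycling cells, beside 0.17 and 0.05 over all genes.

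Other regulators of stem cell quiescence were listed next; 3 of them are also in the stem cell or astrocyte lists. Of 22 tested, 8 were higher and 2 lower in C than in N by at least 1, and 2 were higher and 6 lower in cycling than in non-cycling cells. Over all genes these shares were 9.98% and 4.19% in C minus N, and 15.1% and 4.13% in cycling minus non-cycling cells. Id4, an inhibitor of proneural factors, averaged 2.89 ± 3.54 in cycling and 6.04 ± 3.65 in non-cycling cells, and Id3, of the same family, 1.27 ± 1.60 in cycling and 4.08 ± 3.91 in non-cycling cells. Insm1, a factor of neuronal progenitors that is also in the intermediate progenitor list, averaged 2.26 ± 2.54 in cycling and 0.22 ± 0.69 in non-cycling cells, and Smad4, the common Smad, 2.81 ± 3.31 in cycling and 1.51 ± 2.82 in non-cycling cells. Between classes, Sox9 averaged 8.20 ± 2.50 in C and 3.09 ± 2.57 in N, Id4 5.42 ± 3.83 in C and 1.25 ± 2.07 in N, Id3 3.53 ± 3.74 in C and 4.94 ± 4.77 in N, and Cdkn1c, the inhibitor p57, 0.13 ± 0.76 in C and 1.40 ± 3.10 in N.

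Of 16 tested relatives among the forkhead and ZBTB genes, 2 were higher and 0 lower in C than in N by at least 1, near the 9.98% higher over all genes. Of these, Zbtb18 averaged 2.94 ± 3.04 in C and 0.85 ± 1.24 in N. Foxm1, a forkhead factor of mitotic genes, was the 1 relative higher in cycling cells by at least 1, at 1.58 ± 2.60 against 0.04 ± 0.19 in non-cycling cells. Of 6 tested genes of cortical neuron fate, the kind of gene that Zbtb20 represses in the hippocampus, 2 were higher in C than in N, namely Fezf2 (2.95 ± 3.35 in C and 0.18 ± 0.41 in N) and Tle4 (3.20 ± 3.12 in C and 1.30 ± 2.44 in N), and Tbr1 was lower (0.20 ± 1.02 in C and 1.5 ± 2.97 in N). Tle4 was lower in cycling cells, at 1.84 ± 2.82 against 3.53 ± 3.11 in non-cycling cells.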

How the data were processed

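The authors deposited TPM values per gene in 1 table of the whole series. Per the submitters' processing notes they come from RSEM and the mouse build mm9; the sources used here give no version, aligner, annotation or filter. Apart from rounding each column sums to the same total, so TPM keeps no depth, and 78.5% of values are 0. Of 172 columns 171 match 1 title; C27 fits 2 titles and was used as a C library, which made 142 C libraries, 114 of them non-cycling and 112 led by the neural stem cell list; the order used 128, of which 102 were non-cycling. The reference at hand is a later build, so no coordinates are given. A gene was tested if it reached 1 TPM in at least 5% of libraries, and values were used as log2(TPM + 1). Differences are of class means, called past the fold at a size of 1 (2-fold). Intervals of shares (exact Clopper-Pearson, 95%) take in counting error alone. The members, marker lists and gene lists were chosen with earlier results of these data known. Single libraries were named after their values were seen. Named genes are the members, the 3 most and 2 least like each over C, and, in each list, up to 2 genes furthest past the fold on either side, by comparison; 2 genes that this rule names are not reported here. Alternatives were pseudocounts of 0.1 and 10, no filter, rescaled libraries, log2 ratio of mean TPM, a minimum of 3000 genes, other cuts and left-out libraries. Doublets were not called. Scripts used Python 3.11.15, pandas 2.3.3 and SciPy 1.17.1. The differences and the order were checked with known shifts and a gradient planted in the C libraries. The added shifts return by arithmetic alone, and cycling calls, leading lists and shares were not checked in this way.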

Additional observations from a re-analysis of the deposited data

Results flagged for a closer look

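In a group of 4 libraries, a value is singled out when its gap to the nearest other one takes up most of the range, on the log2(TPM + 1) scale. Chance does this in about 1 of 20 groups of evenly measured values. That rate does not hold for genes listed at or near 0 in 3 of 4 libraries, which are singled out by any clearly higher value in the other one, and both cases here are of that kind. It happened for 2 of the members in R. Foxo1 was at 46.2 TPM in R2, against 0, 0.10 and 0 TPM in R1, R3 and R4. Zbtb20 was at 3 TPM in R1, against 0 TPM in the other 3 libraries.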

How the results depend on the processing

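No paired analysis was possible because the numbers in the titles only name cells, and no result comes from a test. The count of members past the fold in C minus N, 5, was 3 with log2 ratios of mean TPM (without Nfia, 0.81, and Nfib, 0.47), among libraries with at least 3000 genes and against N libraries of the oligodendrocyte precursor list. Past the fold in the main setting were 14.2% of all tested genes, and the shares under these settings are not given here. Against the astrocyte list library the difference was -0.53 for Nfia, 1.12 for Nfic and -4.58 for Foxo1. Against the neuroblast list library it was -0.93 for Nfia, -3.55 for Nfib and -2.47 for Zbtb20. Against the N libraries with no leading list Nfib had -1.02, and against the mural ones Nfic had 1.05. In R minus N, Nfib was at -0.25 by the log2 ratio of mean TPM and Foxo1 at -1.82 with at least 3000 genes per library, which leaves 2 R libraries. With 1 R library left out at a time, Foxo1 ran from -1.33 to 0.52 and the count from 5 to 7. With no R library left out, 41.3% of all tested genes were past the fold, and the shares with 1 left out are not given here. Pairs of members with a rho of at least 0.2 numbered 2, and 1 in non-cycling cells. For cycling minus non-cycling cells no member past the fold changed sign under any alternative. Nfix stayed between 1.0 and 2.87 and Nfib between 0.96 and 1.98, missing the fold by the log2 ratio of mean TPM (0.96), and Foxo1 missed the fold with a pseudocount of 10 (-0.82), by Mki67 (-0.81) and within the neural stem cell list (-0.52). The comparison within that list, leaving out C or N libraries in turn, and the reuse of the order for non-cycling cells were chosen after seeing the data. The re-made order of non-cycling cells gave rho values of -0.27 for Nfix, -0.21 for Nfib and -0.20 for Nfia. The cause of these changes was not tested. The log2 ratio of mean TPM moved the median over all genes to 0.35 in C minus N, -0.99 in R minus N and -0.33 in cycling minus non-cycling cells, against 0.17, -0.18 and 0.05. Unknown depth limits all statements on low genes.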
